A study of Homo sapiens with 4 samples.

Results

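The genes described here make and load the MHC class I molecule: the heavy chain genes HLA-B, HLA-C, HLA-E, HLA-F and HLA-G, the light chain gene B2M, the peptide transporter genes TAP1 and TAP2, and the immunoproteasome subunit gene PSMB9. They were chosen by symbol, as every probe set annotated to 1 of these 9 symbols and to no other gene. That gave 26 of 54675 probe sets and 9 of 19775 genes. No measured value entered the matching by symbol, but the 9 genes were listed with earlier results of these data known. All 9 genes were above the floor of 62.6, set at the median of every deposited value, on all 4 arrays.

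Expression was measured in KGN, an established line from a human ovarian granulosa cell tumour, on Affymetrix HG-U133 Plus 2.0 arrays, with 1 array for each of 4 groups. The siNC group received a control siRNA at 10 nM, and the siYT group received siRNAs against YAP and TAZ, co-activators restrained by the Hippo pathway, at 5 nM each. At 48 h the medium was changed, and the siNC+8Br-cAMP and siYT+8Br-cAMP groups then had 0.5 mM 8Br-cAMP, a cell-permeable analogue of cyclic AMP, for 24 h. All groups grew in the same serum-containing medium. With 1 array a group, differences are given as sizes with no p-value, and no difference has a replicate check. The cells are 1 tumour-derived line, and knockdown was transient.

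Both siRNA targets read low after knockdown. YAP1 read 4915 in siNC, 4772 with 8Br-cAMP added, 1295 in siYT and 1412 in siYT with 8Br-cAMP, and WWTR1, which encodes TAZ, read 5366, 7048, 1028 and 1154 on the same arrays. The 2% trimmed mean of intensity was 500.1 on each array. Of 10 granulosa markers measured, 7 were above the floor on every array, among them FOXL2, STAR and CYP19A1, while FSHR, NR5A1 and AMHR2 were at the floor on all. The summed intensity of those 10 ran from 15888 in siYT to 95484 in siYT+8Br-cAMP. Of 11 leukocyte markers, 5 were at the floor on all arrays, and PTPRC (CD45) passed it only in siYT+8Br-cAMP, at 80.0. CD14 passed it on both control siRNA arrays (94.3 and 130) and ITGAM on both 8Br-cAMP arrays (112 and 128). CD2, CD3D and CD3E passed it on 1 array each, and the summed intensity ran from 307 to 508. Of 5 endothelial markers, CDH5 and VWF were at the floor on all arrays, PECAM1 passed it on all 4, KDR on 3 and TEK on 1, and the summed intensity ran from 295 to 582.

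MHC class I molecules carry peptides cut from cytosolic proteins to the cell surface, where CD8 T cells and natural killer cells read them. Proteasomes cut the peptides, the TAP transporter moves them into the endoplasmic reticulum, and a loading complex fits them into a heavy chain paired with beta-2-microglobulin. Interferons raise the transcription of the whole set in many cell types, and the classical heavy chain promoters also hold the SXY module bound by RFX, CREB/ATF and NF-Y together with the transactivator NLRC5. KGN cells serve as a granulosa cell model, and granulosa cells use cyclic AMP to relay gonadotropin signals.

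Most of the heavy chain values come from probe sets that are not specific to 1 transcript. Of 17 heavy chain probe sets, 15 have the suffix _x_at, which marks probe sets that can bind other sequences, and class I genes share long stretches of sequence. HLA-B, HLA-C and HLA-G have no probe set without that suffix. These 17 probe sets are therefore not independent measures of 5 genes, and part of a signal named for HLA-G or HLA-F could come from HLA-B or HLA-C transcripts.

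The promoter stretches show what the members share in sequence and where they part. They are shown because the class I heavy chain genes kept 1 direction in the knockdown comparisons while TAP2 and PSMB9 did not follow. Windows of 300 bases, from 250 before to 50 after the start, were taken from RefSeq on GRCh38.p14 for 8 of the 9 genes. HLA-G has 3 such windows and TAP1 has 2, and 1 of each is shown. The HLA-G window was picked for its likeness to the other heavy chain windows. Its start, at chr6:29827825, lies inside the annotated gene, which begins at chr6:29826474, and HLA-G distances are counted from that start. The other HLA-G windows hold no match to the motifs searched. Each line runs 5′ to 3′ on the gene's own strand, and capitals mark matches to the motifs named after the lines.
HLA-B: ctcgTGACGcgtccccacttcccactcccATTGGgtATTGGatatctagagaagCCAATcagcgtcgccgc
HLA-C: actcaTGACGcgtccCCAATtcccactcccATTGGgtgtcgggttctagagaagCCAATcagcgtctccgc
HLA-F: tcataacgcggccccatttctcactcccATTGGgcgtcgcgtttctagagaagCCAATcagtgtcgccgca
HLA-G: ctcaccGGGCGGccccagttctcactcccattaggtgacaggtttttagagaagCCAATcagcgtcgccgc
B2M: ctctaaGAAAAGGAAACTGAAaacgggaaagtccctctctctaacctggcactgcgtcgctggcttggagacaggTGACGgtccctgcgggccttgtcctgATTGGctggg
TAP1: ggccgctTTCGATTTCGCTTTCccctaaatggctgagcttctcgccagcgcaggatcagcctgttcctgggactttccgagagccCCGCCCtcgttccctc
TAP2: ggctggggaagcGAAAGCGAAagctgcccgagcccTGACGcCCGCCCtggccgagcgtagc
PSMB9: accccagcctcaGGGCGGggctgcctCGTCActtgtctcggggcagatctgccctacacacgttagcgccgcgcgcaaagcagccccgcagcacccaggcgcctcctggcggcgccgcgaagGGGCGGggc

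The heavy chain stretches run from 110 to 40 bases before the start, at chr6:31357219-31357289 on the minus strand for HLA-B, chr6:31272132-31272202 on the minus strand for HLA-C, chr6:29723324-29723394 on the plus strand for HLA-F and chr6:29827715-29827785 on the plus strand for HLA-G. B2M is at chr15:44711367-44711477 (plus). TAP1 is at chr6:32853744-32853844 (minus), TAP2 at chr6:32838749-32838809 (minus) and PSMB9 at chr6:32854022-32854152 (plus). The motifs searched on both strands were the inverted CCAAT box ATTGG, bound by NF-Y, the core TGACG of the cyclic AMP response element, the interferon-type element GAAANNGAA, the GC box GGGCGG, a kappaB-type GGGANTTCC, a GAS-type TTCNNNGAA and a TEAD-type GGAATG. Of 35116 promoter windows in the table, 34.6% hold ATTGG, 24.6% TGACG, 8.11% GAAANNGAA, 45.0% GGGCGG, 1.85% GGGANTTCC, 7.66% TTCNNNGAA and 14.0% GGAATG.

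A run of 16 bases, tagagaagCCAATcag, is common to the 4 heavy chain stretches. HLA-B and HLA-C hold TGACG, 106 and 105 bases before the start, and the stretches of HLA-F and HLA-G do not. B2M holds a pair of overlapping interferon-type matches, 144 and 138 bases before its start, besides TGACG and ATTGG, and TAP1 holds an overlapping pair on the other strand. The HLA-F window holds 1 such match on the other strand, 155 bases before the start and outside the stretch shown, and the HLA-B, HLA-C and HLA-G windows hold none. TAP2 holds 1 interferon-type match beside TGACG and a GC box, and PSMB9 holds GC boxes and a TGACG in its stretch. The TEAD-type letters, searched because TEAD factors carry YAP and TAZ to DNA, were found in the B2M window only, where they span the start. TAP1 and PSMB9 face away from each other from starts with 487 bases between them. GGGANTTCC was in none of the windows and TTCNNNGAA in 1, the other TAP1 window, which says only that the letters are not in the rest. Forms of a kappaB site with other letters or length, such as the unmarked gggactttcc in the TAP1 stretch, were not searched. A match is a description of letters and shows no binding.

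After YAP/TAZ knockdown all 17 heavy chain probe sets read higher, both without and with 8Br-cAMP. The log2 differences ran from 0.055 to 1.07 with a median of 0.55 for siYT minus siNC, and from 0.22 to 2.16 with a median of 0.77 for siYT+8Br-cAMP minus siNC+8Br-cAMP. These comparisons share no array. Among 19458 probe sets above the floor on all arrays, 32.6% were higher in both by any amount. The count stayed 17 of 17 after quantile normalization (medians 0.55 and 0.52) and after cyclic loess (0.54 and 0.63). Of the 17, 1 probe set was at least 2-fold higher without 8Br-cAMP, against 8.05% of those 19458, and 3 were with it, against 7.26%.

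**Figure D1:**
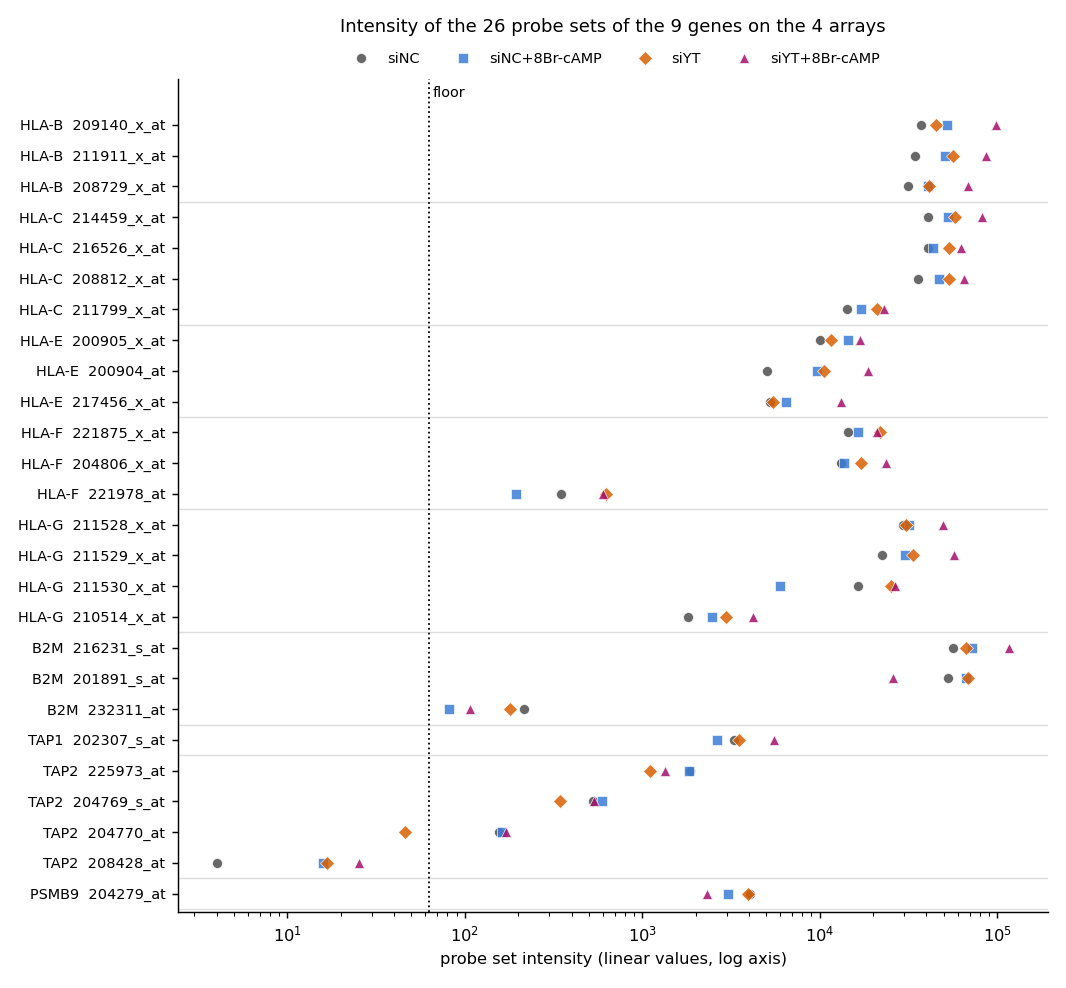
Intensity of each of the 26 probe sets (rows) on the 4 arrays, on a log axis, 1 symbol per group and no error bars because each group is 1 array; the dotted line is the floor of 62.6. The siYT+8Br-cAMP array is the highest for 15 of 17 heavy chain probe sets, and the siNC array is the lowest for 15 of 17.

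HLA-B, a classical heavy chain that presents peptides to CD8 T cells, lies at chr6:31353875-31357179. Its representative probe set, the one with the highest mean log2 level of the 3, read 37416 in siNC, 52065 with 8Br-cAMP added, 45515 in siYT and 98623 in siYT with 8Br-cAMP. The siYT+8Br-cAMP array stood well above the others. The probe set 211911_x_at read 34660, 50767, 56308 and 86981 in the same order. The probe set 208729_x_at read 31642, 40896, 41543 and 68727. All 3 put siNC lowest and siYT+8Br-cAMP highest, and they differed on the order of the arrays between.

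The representative difference of HLA-B after knockdown was 0.28 without 8Br-cAMP, within the SD of 0.39 between probe sets of 1 gene that served as a yardstick of measurement error. With 8Br-cAMP it was 0.92 (1.89-fold), above the SD of 0.54 for that comparison. Over the 3 probe sets the differences ran from 0.28 to 0.70 without and from 0.75 to 0.92 with 8Br-cAMP. The yardstick covers 7501 probe sets of 3019 genes, and variation between cultures is not in it.

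HLA-C, the other classical heavy chain measured and the main ligand of killer-cell immunoglobulin-like receptors, lies at chr6:31268749-31272092. Its representative probe set of 4 read 40881 in siNC, 52707 with 8Br-cAMP added, 58030 in siYT and 82398 in siYT with 8Br-cAMP. Both knockdown arrays were above both control siRNA arrays. The differences after knockdown were 0.51 (1.42-fold) without and 0.64 (1.56-fold) with 8Br-cAMP. The other probe sets gave similar values, and the 4 together ran from 0.39 to 0.57 and from 0.43 to 0.64. HLA-C had the smallest spread over probe sets among the 5 heavy chains in the first comparison, with an SD of 0.080.

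HLA-E, a non-classical heavy chain that binds leader peptides and is read by the CD94/NKG2A receptor, lies at chr6:30489509-30494194. The representative probe set, 200905_x_at, read 10010 in siNC, 14485 with 8Br-cAMP added, 11571 in siYT and 16880 in siYT with 8Br-cAMP. The probe set 200904_at, the 1 without the cross-binding suffix, read 5028, 9632, 10543 and 18652. Its siNC value was the lowest and the other arrays were 1.92-fold or more above it. The probe set 217456_x_at read 5263, 6449, 5469 and 13232, and only siYT+8Br-cAMP stood apart.

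These probe sets put HLA-E at very different sizes. The knockdown differences were 0.21 and 0.22 for 200905_x_at, 1.07 (2.10-fold) and 0.95 (1.94-fold) for 200904_at, and 0.055 and 1.04 for 217456_x_at. The direction was the same in all, and the size of an HLA-E difference depends on the probe set by more than the yardstick SD.

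HLA-F, a non-classical heavy chain known for surface expression without peptide, lies at chr6:29723434-29738532. Its representative probe set read 14414 in siNC, 16414 with 8Br-cAMP added, 21784 in siYT and 20949 in siYT with 8Br-cAMP. Both knockdown arrays were again above both control arrays, with differences of 0.60 (1.51-fold) and 0.35 (1.28-fold). The dim probe set 221978_at, which has no cross-binding suffix, read 348, 194, 627 and 603, and its knockdown differences were 0.85 (1.80-fold) and 1.64 (3.11-fold). The remaining probe set read 13285, 13771, 17181 and 23573.

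HLA-G, a non-classical heavy chain best known from the trophoblast and an inhibitory ligand of leukocyte receptors, lies at chr6:29826474-29831021. Its representative probe set of 4 read 29496 in siNC, 31785 with 8Br-cAMP added, 30700 in siYT and 49775 in siYT with 8Br-cAMP, so that siYT+8Br-cAMP alone stood apart. The probe set 211529_x_at read 22414, 30167, 33622 and 56857, a mean log2 level just below the representative and a mean intensity just above it (35765 against 35439). The probe set 210514_x_at read 1814, 2485, 2961 and 4223. The probe set 211530_x_at read 16562, 5963, 25316 and 26724, and it differed from the others by a low value on siNC+8Br-cAMP.

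Knockdown differences of HLA-G without 8Br-cAMP were 0.058 for the representative, 0.59 for 211529_x_at, 0.61 for 211530_x_at and 0.71 for 210514_x_at. With 8Br-cAMP they were 0.65, 0.91, 2.16 and 0.77. The value of 2.16 (4.48-fold) rests on the low siNC+8Br-cAMP reading of 1 probe set. All 4 carry the _x_at suffix, so none of these values is particular to HLA-G transcripts.

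B2M, the invariant light chain that every class I heavy chain needs to reach the surface, lies at chr15:44711517-44718145. The representative probe set, 216231_s_at, read 56189 in siNC, 72432 with 8Br-cAMP added, 66476 in siYT and 116589 in siYT with 8Br-cAMP. The probe set 201891_s_at read 53212, 66621, 68242 and 26039. The pair agreed on 3 arrays and parted on siYT+8Br-cAMP. The ratio of the first to the second was 1.06, 1.09 and 0.974 on siNC, siNC+8Br-cAMP and siYT, and 4.48 on siYT+8Br-cAMP.

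Without 8Br-cAMP both B2M probe sets were therefore slightly higher after knockdown, by 0.24 (1.18-fold) and 0.36 (1.28-fold), each within the yardstick SD of 0.39. With 8Br-cAMP they gave opposite directions, 0.69 and -1.36. On the siYT+8Br-cAMP array the 3′ to 5′ ratio of the control probe sets was 1.35 for ACTB, where the other arrays had 1.07 to 1.14. For GAPDH it was 1.13, where they had 0.888 to 0.962, and the part of this in the B2M readings was not tested. The direction of B2M on that array thus depends on the probe set. The third probe set, 232311_at, was dim at 215, 81.4, 181 and 107.

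**Figure D2:**
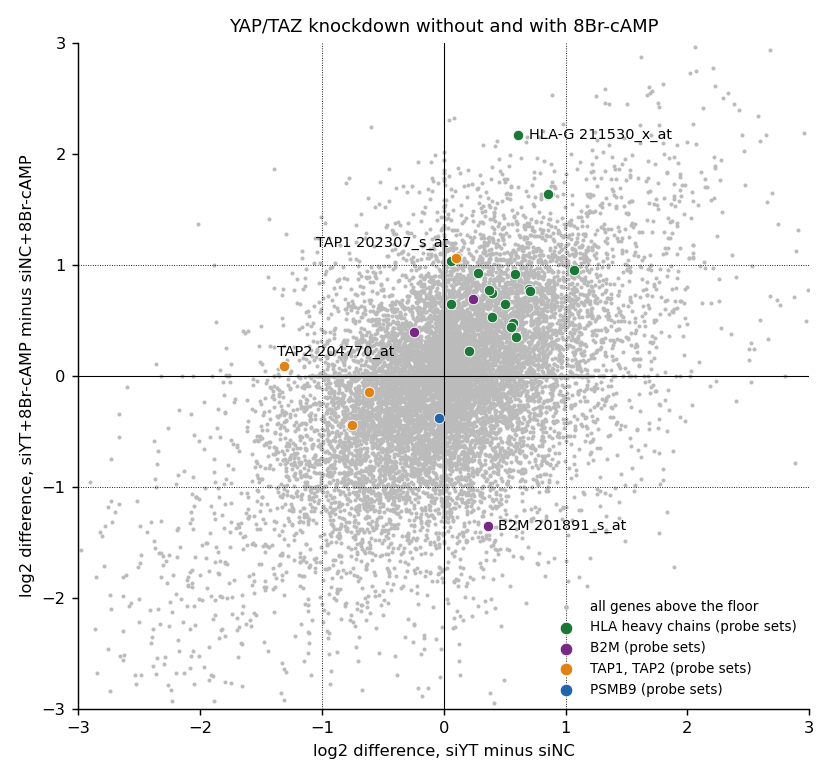
Log2 difference after YAP/TAZ knockdown without 8Br-cAMP (x axis) and with it (y axis), for genes above the floor (grey points, drawn between -3 and 3) and for the members' probe sets that passed it somewhere (coloured), with dotted lines at 2-fold. The 17 heavy chain points all lie above and to the right of 0, the 3 TAP2 points drawn lie left of 0, and a B2M probe set lies at -1.36 on the y axis.

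TAP1 and TAP2 form the heterodimer that pumps peptides into the endoplasmic reticulum, and their knockdown differences had opposite signs. TAP1, at chr6:32845209-32853704, has 1 probe set, which read 3294 in siNC, 2632 with 8Br-cAMP added, 3527 in siYT and 5504 in siYT with 8Br-cAMP. Its knockdown difference was 0.099 without and 1.06 (2.09-fold) with 8Br-cAMP. It was the 1 member at least 2-fold higher in that comparison.

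TAP2, at chr6:32821831-32838739, was lower in siYT. Its representative probe set read 1864 in siNC, 1829 with 8Br-cAMP added, 1107 in siYT and 1345 in siYT with 8Br-cAMP. Both knockdown arrays were below both control arrays, by -0.75 (1.68-fold) and -0.44 (1.36-fold), the first beyond the yardstick SD and the second within it. The probe set 204769_s_at read 526, 594, 344 and 536, with differences of -0.61 and -0.15. The dim probe set 204770_at read 155, 162, 46.0 and 172, so its siYT value was below the floor and its difference of -1.31 is a bound, at least 2.48-fold lower. A further probe set, 208428_at, was at the floor on all arrays.

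PSMB9 encodes the beta-1i subunit, which replaces the standard subunit PSMB6 in the immunoproteasome. It lies at chr6:32854192-32859851, and its probe set read 4075 in siNC, 3027 with 8Br-cAMP added, 3958 in siYT and 2325 in siYT with 8Br-cAMP. Both arrays with 8Br-cAMP were below both without it. Knockdown differences were -0.042 and -0.38, both within the yardstick SD. TAP1 and PSMB9, whose starts lie side by side, thus differed on siYT+8Br-cAMP, where TAP1 was at its highest and PSMB9 at its lowest.

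Counted as genes, 0 of 9 were at least 2-fold higher (7.30% of all 14427 genes above the floor) and 0 at least 2-fold lower (6.05%) after knockdown without 8Br-cAMP. With 8Br-cAMP, TAP1 alone was at least 2-fold higher (6.74% of all genes) and 0 were lower (9.48%). At 1.5-fold, HLA-F was higher (17.7%) and TAP2 lower (15.0%) without 8Br-cAMP, and HLA-G, at 0.59, was also higher when the probe set with the highest mean intensity stood for each gene. With it, HLA-B, HLA-C, HLA-G, B2M and TAP1 were at least 1.5-fold higher, 5 of 9 genes against 17.8% of all genes, and 0 were lower (20.0%). After quantile normalization TAP1 stood at 1.00, HLA-B at 0.52, HLA-G at 0.51, HLA-C at 0.36 and B2M at 0.18, so that TAP1 alone stayed past 1.5-fold, just short of 2-fold, and after cyclic loess HLA-B and TAP1 did. The median of the 9 was 0.21 without and 0.64 with 8Br-cAMP, against 0 over all genes in each, and 0.20 and 0.24 after quantile normalization. Without the probe sets of suffix _x_at, _s_at and _a_at, which leaves 5 of the 9 genes, the medians were -0.042 and 0.39. The 9 values with 8Br-cAMP share the siYT+8Br-cAMP array and, for the heavy chains, cross-binding probes.

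The comparison of arrays with and without 8Br-cAMP asked how the same genes stood under cyclic AMP, first with control siRNA. By representative probe set no member reached 2-fold in either direction there (0 of 9 each, against 4.34% of all genes higher and 5.22% lower), and none reached 1.5-fold (12.7% and 14.1%). Some other probe sets did pass 1.5-fold. HLA-E 200904_at stood at 0.94, HLA-F 221978_at at -0.84, HLA-G 211530_x_at at -1.47 and the dim B2M 232311_at at -1.40. The largest representative differences were 0.53 for HLA-E and 0.48 for HLA-B, each above the yardstick SD of 0.37. HLA-B was at 0.27 after quantile normalization and 0.25 after cyclic loess, within it. HLA-C and B2M were at 0.37, HLA-F at 0.19 and HLA-G at 0.11, all within it, and HLA-G was at -0.023 after quantile normalization and -0.082 after cyclic loess. PSMB9 stood at -0.43 and TAP1 at -0.32, and TAP2 stood at -0.028.

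After knockdown the differences with 8Br-cAMP were larger for several members. HLA-B was 1.12 (2.17-fold) higher and was the 1 of 9 at least 2-fold higher (5.00% of all genes), while 0 were at least 2-fold lower (9.88%). At 1.5-fold, HLA-B, HLA-G (0.70), B2M (0.81) and TAP1 (0.64) were higher, 4 of 9 against 15.0% of all genes, and PSMB9 (-0.77, 1.70-fold) was the 1 lower (21.3%). After quantile normalization 0 of 9 were 1.5-fold higher, with HLA-B at 0.50, HLA-G at 0.39, B2M at 0.054 and TAP1 at 0.56, and after cyclic loess HLA-B (0.77) and TAP1 (0.62) were. HLA-E was at 0.54, HLA-C at 0.51, TAP2 at 0.28 and HLA-F at -0.056. The yardstick SD here was 0.53. The second B2M probe set again went the other way, at -1.39.

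The 8Br-cAMP differences of the heavy chains depended on the scaling between arrays. As deposited, 14 of 17 heavy chain probe sets were higher with 8Br-cAMP under both siRNAs, against 29.5% of 19458 probe sets. After quantile normalization 8 were, and after cyclic loess 9 were. The median with control siRNA was 0.37 as deposited, 0.20 after quantile normalization and 0.16 after cyclic loess. After knockdown it was 0.51, 0.25 and 0.28. For HLA-C the representative went from 0.51 to -0.063 after quantile normalization. PSMB9 kept -0.77 as deposited and stood at -0.78 under both scalings.

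**Figure D3:**
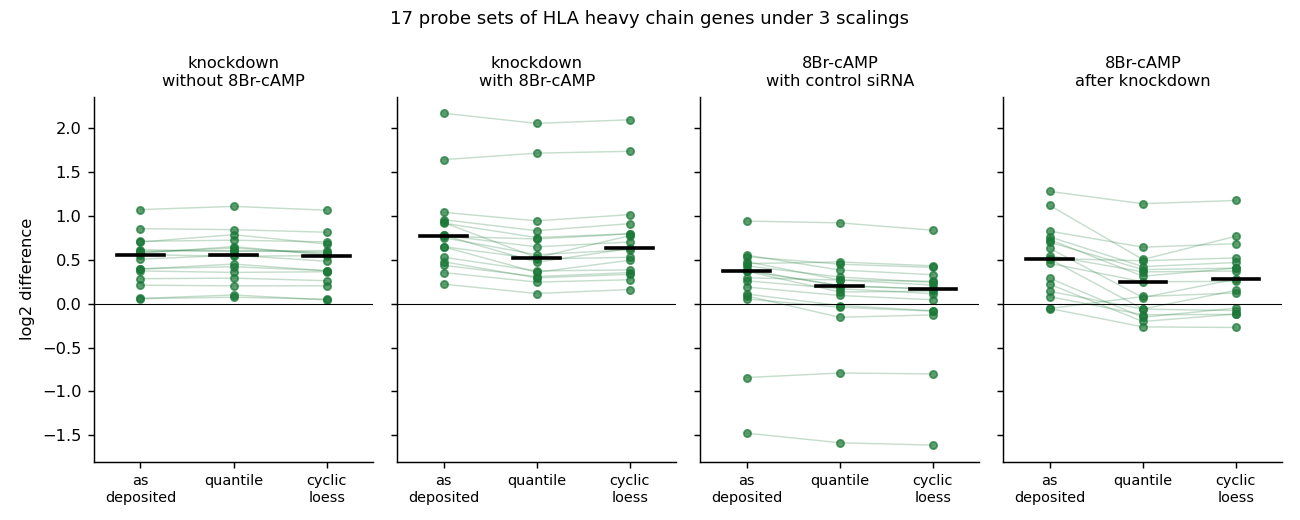
Log2 difference of each of the 17 heavy chain probe sets (green points, joined by lines) in 4 comparisons, from values as deposited and after 2 normalizations between arrays; black bars are medians. All points stay above 0 in both knockdown panels, and the medians with 8Br-cAMP after knockdown go from 0.51 to 0.25 and 0.28.

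Bright genes as a class were also higher on the 8Br-cAMP arrays. Of genes other than the 9, 620 had a mean intensity above 10000, the range that holds all 5 heavy chain genes and B2M. Their median difference was 0.18 with control siRNA and 0.26 after knockdown, and 68.5% and 67.4% of them were above 0. For knockdown their medians were 0.0013 without and 0.11 with 8Br-cAMP. The medians of the heavy chain representatives, 0.28 and 0.64 after knockdown and 0.37 and 0.54 with 8Br-cAMP, were higher in each comparison as deposited. For 8Br-cAMP, HLA-G with control siRNA (0.11) and HLA-F after knockdown (-0.056) were below the bright-gene medians. TAP1, TAP2 and PSMB9 lie between 1000 and 10000, where the medians of 4573 genes were between -0.0010 and 0.048 in the 4 comparisons.

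**Figure D4:**
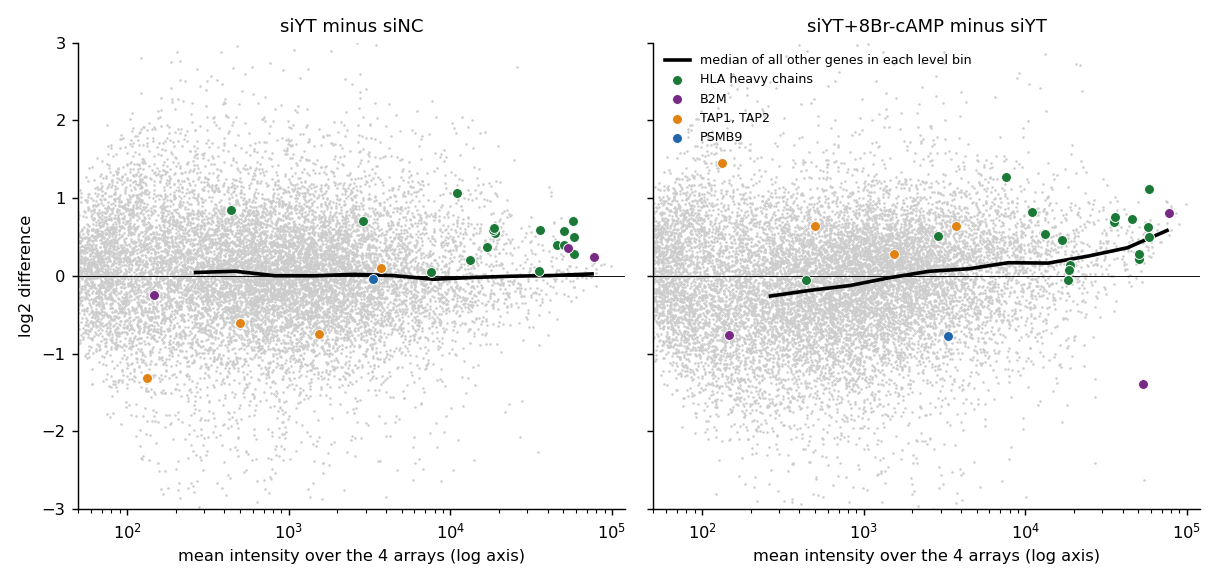
Log2 difference against mean intensity over the 4 arrays (log axis) for all genes (grey) and the probe sets of the 9 genes (coloured), for siYT minus siNC (left) and siYT+8Br-cAMP minus siYT (right). The black line is the median of all other genes in each bin of level; above 10000 the median is 0.0013 on the left and 0.26 on the right.

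The difference of differences, knockdown with 8Br-cAMP minus knockdown without it, asked whether the 2 factors added on the log2 scale. No member reached 2-fold in it (0 of 9 higher and 0 lower, against 5.39% and 9.56% of all genes). TAP1 (0.97), HLA-B (0.64) and HLA-G (0.59) were past 1.5-fold higher (15.5%) and 0 were lower (20.9%). The yardstick SD was 0.60, which TAP1 and HLA-B passed and HLA-G did not. HLA-C (0.14), HLA-E (0.012), HLA-F (-0.24), TAP2 (0.31), B2M (0.44) and PSMB9 (-0.34) were within it. For HLA-B the other probe sets gave 0.077 and 0.36. The second bright B2M probe set, 201891_s_at, gave -1.71 and the HLA-E probe set 217456_x_at gave 0.98, both beyond that SD, so the size, and for B2M the direction, depends on the probe set. After quantile normalization HLA-B stood at 0.23, B2M at -0.067 and TAP1 at 0.87.

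Of the 9 genes, HLA-B had the widest range of log2 level over the arrays, 1.40. Among 7897 other genes more than 4 times above the floor on all arrays, the 6 with the pattern most like it, by root mean square distance over the 3 differences from siNC, were AAMDC (0.045), COMMD3 (0.051), DGKQ (0.054), ABHD5 (0.057), ANAPC5 (0.063) and RTTN (0.078). The nearest, AAMDC, read 415 in siNC, 577 with 8Br-cAMP added, 532 in siYT and 1090 in siYT with 8Br-cAMP. No other of the 9 genes was among these 6 by construction, since members were left out of the search, and 4 arrays give only 3 differences.

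The partners that load peptide onto class I were compared next, from a list of 13 genes of which 12 were measured. After knockdown TAPBP and TAPBPL stood out. TAPBP encodes tapasin, which bridges TAP and the heavy chain, and it read 3706 in siNC, 2992 with 8Br-cAMP added, 8055 in siYT and 11349 in siYT with 8Br-cAMP, 1.12 and 1.92 higher after knockdown. TAPBPL encodes TAPBPR, a peptide editor related to tapasin, and it read 384, 423, 1453 and 1782, with differences of 1.92 and 2.07. At least 2-fold higher values in both comparisons were thus seen for 2 of 12 genes, against 2.38% of all genes.

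Other loading genes were mixed. CALR, the chaperone calreticulin, was 1.13 and 0.87 higher after knockdown, and ERAP1, the peptide-trimming aminopeptidase of the endoplasmic reticulum, 0.69 and 0.84 higher. ERAP2, its paralogue, was 0.97 higher without and -0.22 with 8Br-cAMP. CANX, PDIA3 and NRDC, the brightest others, differed by 0.00012 and 0.26, 0.68 and 0.37, and -0.21 and 0.40. THOP1, a cytosolic peptidase that destroys peptides, was -1.01 and -0.97, the first against a siYT value below the floor. The list's median was 0.50 without and 0.36 with 8Br-cAMP, against 0.28 and 0.64 for the heavy chain genes by representative probe set.

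Proteasome genes stood on the other side. Of 13 measured genes of the constitutive core, 12 were lower in both knockdown comparisons by any amount, against 28.5% of all genes, and 13 of 13 were after quantile normalization and after cyclic loess. Their medians were -0.53 and -0.41, and 0 reached 2-fold in either. PSMB1, PSMB4, PSMA2 and PSMB3, the brightest, differed by -0.22 and -0.38, -0.23 and -0.22, -0.38 and -0.41, and -0.60 and -0.44. The constitutive core and the heavy chains thus had medians of opposite sign in both knockdown comparisons.

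The 4 measured partners of PSMB9 were lower by any amount in both knockdown comparisons under each scaling, against 28.5% of all genes as deposited. PSMB10, which encodes the beta-2i subunit, read 1703 in siNC, 1340 with 8Br-cAMP added, 821 in siYT and 429 in siYT with 8Br-cAMP, with differences of -1.05 and -1.64. It was the 1 of 4 at least 2-fold lower in both, against 2.81% of all genes. PSMB8, the beta-5i subunit encoded next to TAP1, was at -0.37 and -0.11, the activator subunit PSME1 at -0.38 and -0.28, and the assembly factor POMP at -0.51 and -0.22. Of the values for PSMB8, PSME1 and POMP, all but the first for POMP were within the yardstick SDs of 0.39 and 0.54.

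**Figure D5:**
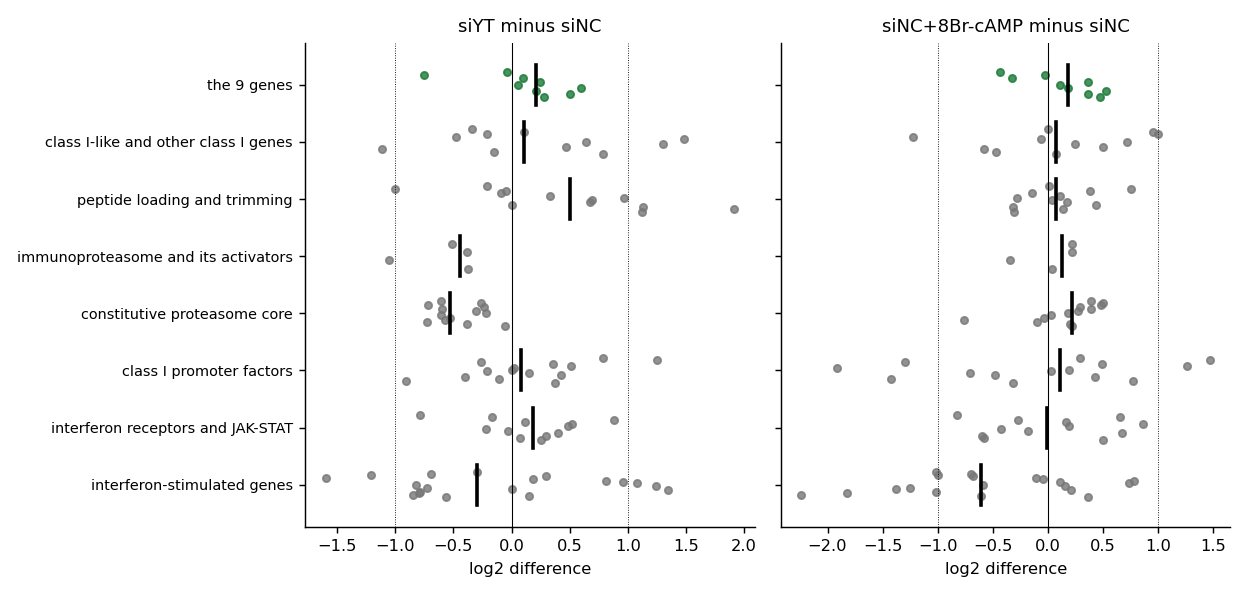
Log2 difference of each gene (points) in the 9 genes (green) and 7 pathway lists (grey), for knockdown (left) and 8Br-cAMP with control siRNA (right); black bars are medians and dotted lines 2-fold. On the left the proteasome medians of -0.45 and -0.53 lie below 0 and the peptide loading median of 0.50 lies above it; on the right the interferon-stimulated median is -0.60.

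Relatives of the heavy chains did not follow 1 direction. HLA-J, a class I pseudogene measured by an _x_at probe set, was 0.79 and 1.12 higher after knockdown. FCGRT, the heavy chain of the neonatal Fc receptor, read 1328 in siNC, 1271 with 8Br-cAMP added, 3718 in siYT and 4906 in siYT with 8Br-cAMP, 1.48 and 1.95 higher, and MR1, which presents vitamin B metabolites, was 1.30 and 0.61 higher. MICB, a stress ligand of the NKG2D receptor, read 2410, 1611, 1112 and 385, with differences of -1.12 and -2.07. ULBP2, another NKG2D ligand, differed with 8Br-cAMP, 1.00 with control siRNA and 1.54 after knockdown. The 11 genes of the list that passed the floor had medians of 0.10 and 0.23 after knockdown, and of -0.018 and 0.22 after quantile normalization.

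Of 15 listed genes for factors that act at class I promoters, 14 were measured. NLRC5, the class I transactivator, read 787 in siNC, 633 with 8Br-cAMP added, 1017 in siYT and 665 in siYT with 8Br-cAMP, with knockdown differences of 0.37 and 0.071. RFX5, the subunit that gives the RFX complex its DNA binding, was -0.91 and -1.36 after knockdown. IRF1, the interferon-response activator of class I genes, read 1204, 319, 1221 and 347, so that both 8Br-cAMP arrays were low, by -1.91 and -1.81. NFKB1, the p105/p50 NF-kappaB subunit, was -1.29 and -1.87 with 8Br-cAMP, and RFXAP, an RFX subunit, -1.42 and -1.48.

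These 3 of 14, IRF1, NFKB1 and RFXAP, were at least 2-fold lower in both 8Br-cAMP comparisons, against 2.08% of all genes. IRF2 was higher with 8Br-cAMP, by 1.27 and 0.56. CREB1, which binds the TGACG core, read 1714, 1229, 2298 and 418, low in siYT+8Br-cAMP alone, by -1.56 against siNC+8Br-cAMP and by -2.46 against siYT. USF1 and USF2, E-box factors of class I promoters, stood at 1.25 and -0.079 and at 0.79 and -0.31 in the knockdown comparisons. The siNC reading of USF1, 63.4, was barely above the floor of 62.6. Its knockdown difference of 1.25 and its 8Br-cAMP difference of 1.48 with control siRNA both rest on that reading. IRF1 and NFKB1 were thus low on both 8Br-cAMP arrays. HLA-B and TAP1 were highest on siYT+8Br-cAMP, while TAP1 was lowest on siNC+8Br-cAMP. Any link between these readings was not tested.

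Interferon-stimulated genes outside class I were mixed after knockdown, from a list of 20 genes of which 19 passed the floor. Their median after knockdown was -0.30 without and -0.44 with 8Br-cAMP, against 0.21 and 0.64 for the 9 genes. Without 8Br-cAMP 10 were lower and 9 higher, and with it 13 were lower and 5 higher. OAS1 (1.35), GBP2 (1.24) and IFI6 (1.08) were at least 2-fold higher in the first comparison (7.30% of all genes) and UBE2L6 and WARS1 (-1.21) at least 2-fold lower (6.05%). OAS1 and GBP2 stood at -0.55 and -0.11 in the second. With 8Br-cAMP it was -0.60 with control siRNA and -0.80 after knockdown, and 4 of 19 (IFIT2, IFIT3, MX1 and GBP1) were at least 2-fold lower in both, against 2.08% of all genes. GBP1, an interferon-induced GTPase, read 1938 in siNC, 815 with 8Br-cAMP added, 1174 in siYT and 259 in siYT with 8Br-cAMP. IFI6, a mitochondrial interferon-induced protein, was the 1 gene of the list past 2-fold upward under both knockdown contrasts (2.38% of all genes), at 19970, 33429, 42120 and 73255, with differences of 1.08 and 1.13. UBE2L6, which conjugates ISG15, was the 1 at least 2-fold lower in both (2.81%), at -1.60 and -1.80.

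IFNG and IFNB1, the genes of interferon gamma and beta, were at the floor on all arrays. Of the other interferon receptor and JAK-STAT genes, 12 were above it on at least 1 array, with medians of 0.18 and -0.17 after knockdown. The receptor genes IFNGR1 and IFNGR2 differed by 0.25 and -0.33 and by 0.075 and 0.35 after knockdown. IFNAR1 was -1.09 with 8Br-cAMP after knockdown, the 1 gene of this list past 2-fold in the 4 comparisons.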

How the data were processed

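Each deposited value is the linear intensity of a probe set on 1 array. Per the submitters' processing notes RMA in Expression Console gave them (program version not given in the sources used here). RMA output is on a log scale with 1 distribution for all arrays, whereas these values were linear, with medians from 56.9 to 66.3 and a 2% trimmed mean of 500.1 on each array, so the summary method stays unknown. Per the labels' protocols, biotin-labelled cRNA was made by a 3′ IVT method, which favours the 3′ end of transcripts. Values below 62.6 (log2 5.97), the median of all values, were set to that floor before log2, with no further normalization. Of 54675 probe sets, 41097 had 1 gene symbol, 1801 several and 11777 none; probe sets with several or none were not used. Each of 19775 genes was represented by its probe set with the highest mean log2 level, and 14427 were above the floor on at least 1 array.

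Differences of log2 values were computed in Python 3.11.15 with pandas 2.3.3, and alternative normalizations in R 4.3.3 with limma 3.58.1. The 2-fold rule (1.5-fold as an alternative) was a rule of size, since 1 array a group gives no replicate check, and the number of arrays limits the precision. An additive fit of both factors, whose error would be the difference of differences itself, was not used. The floored differences were tested on simulated data. Alternatives were other floors, other choices of probe set, quantile and cyclic loess normalization, and the 1.5-fold threshold. The 9 genes, the lists and the motifs were chosen with earlier results of these data known. All probe sets of the 9 genes are given; of each list, genes at least 2-fold different in any of the 4 comparisons and up to 4 of the brightest others could be named, from which examples were taken. An identity between class I proteins was planned and not run.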

Additional observations from a re-analysis of the deposited data

Results flagged for a closer look

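A probe set of B2M, 201891_s_at, went in opposite directions under the same contrast. After knockdown it stood at 0.36 without 8Br-cAMP and at -1.36 with it, and its 8Br-cAMP difference was 0.32 with control siRNA and -1.39 after knockdown. All of this rests on 1 value, 26039 on the siYT+8Br-cAMP array, where the other bright B2M probe set read 116589. The dim TAP2 probe set 204770_at gave a knockdown difference of -1.31 without and 0.085 with 8Br-cAMP, from a siYT value below the floor. The HLA-G probe set 211530_x_at gave an 8Br-cAMP difference of -1.47 with control siRNA and 0.078 after knockdown, from 5963 on the siNC+8Br-cAMP array. With 1 array a group, none of these differences between contrasts was tested.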

How the results depend on the processing

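Of 370 values of single genes under the alternatives, 335 moved by less than the SD between probe sets and 35 by more. Values under the other floors could not move, because every representative reading lay above both. TAP1 and PSMB9 have 1 probe set, so the second probe set and the mean of all probe sets repeated their values. Choosing by mean linear intensity changed the probe set of HLA-G only. Leaving out _x_at probe sets repeated the values of B2M, TAP1, TAP2 and PSMB9, and leaving out all 3 suffixes those of TAP2 and PSMB9. Many of the 335 values thus could not move, and their number is not a measure of stability. Of values past 2-fold, 0 changed sign, and these were only TAP1 after knockdown with 8Br-cAMP (1.06) and HLA-B with 8Br-cAMP after knockdown (1.12). Below 2-fold signs did change, as for B2M after knockdown with 8Br-cAMP, from 0.69 to -1.36 with the second probe set. Leaving out probe sets with the suffix _x_at kept 6 of the 9 genes, and leaving out _s_at and _a_at too kept 5. The count at least 2-fold higher after knockdown without 8Br-cAMP went from 0 to 1 without _x_at probe sets, without all 3 suffixes, with the second probe set of each gene (chosen after seeing the data) and at 1.5-fold; the count lower went to 1 at 1.5-fold. With 8Br-cAMP the count higher went from 1 to 2 with the mean of all probe sets or without _x_at, to 0 after quantile normalization and to 5 at 1.5-fold, and the count lower to 1 with the second probe set. For 8Br-cAMP with control siRNA, leaving out all 3 suffixes gave 1 lower and a median of -0.43. The median there, 0.19 by representative probe set, was also negative with the mean of all probe sets (-0.12) and without _x_at (-0.18). For 8Br-cAMP after knockdown the count higher of 1 (HLA-B) went to 0 with the mean of all probe sets, without _x_at, without all 3 suffixes, with the second probe set, after quantile normalization and after cyclic loess, and to 4 at 1.5-fold; the count lower went to 1 with the second probe set and at 1.5-fold, and the median to -0.057 without all 3 suffixes. The difference of differences had 3 higher at 1.5-fold and 1 lower with the second probe set. Its median went from 0.31 to -0.067 after quantile normalization and to 0.30 after cyclic loess. Dropping suffixes drops genes; the cause of the other moves was not tested. Taking the probe set with the highest mean linear intensity (also chosen after seeing the data) kept every count at 2-fold. No floor, or a floor at the 75th percentile (389), left the values of the 9 genes unchanged, for the reason given above. No paired analysis was possible because each group has 1 array. Signal over background limits the dim TAP2 and B2M probe sets, and cross-binding limits the heavy chains.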
